A study of Mus musculus with 3 samples.

Results

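The genes described here are 10 components of the Notch pathway: the receptors Notch1, Notch2 and Notch3, the sheddases Adam10 and Adam17, the nuclear components Rbpj, Maml1 and Maml2, and the target genes Hes1 and Dtx1. They were matched by GENCODE M21 symbol to the deposited gene and transcript tables, and all 10 were found among 55536 annotated genes. Transcripts were measured by polyA RNA sequencing in effector memory CD4 T cells, helper T cells that have met antigen and circulate through tissues. The cells came from 1 male mouse, an adult aged 5 months, of strain B6.SJL-Ptprca Pepcb/BoyJ, a congenic C57BL/6 line that carries a variant of CD45. The labels give no treatment and name the whole organism as the origin of the cells, and their sorting gate was not given in the sources used here. The 3 libraries are labelled as technical replicates 1, 2 and 3 of 1 biosample, and those numbers name the libraries throughout. They form a single group with no control, so no conditions or animals were compared, and each SD and p-value measures only the spread between libraries of 1 sample.

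Notch is a receptor that is cut to signal. A ligand on a neighbouring cell pulls on the receptor, an ADAM protease then sheds its outer part, and gamma-secretase releases the intracellular domain, which enters the nucleus, joins the DNA-binding protein RBPJ and recruits a Mastermind-like coactivator to switch on target genes. In T cells the pathway is known for directing thymic progenitors to the T lineage and for shaping helper cell responses and memory cell survival.

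Library 1 stood apart from the others. Across genes detected in every library, Spearman's correlation of TPM (transcripts per 1000000 transcripts, a level corrected for transcript length) was 0.990 between libraries 2 and 3, against 0.926 and 0.925 between library 1 and each of them. Genes are not independent replicates, and the correlation describes these libraries only. The members are therefore given library by library, and means of pathway genes that shift most are also given for libraries 2 and 3 alone. Expected counts on annotated genes came to 17474991, 15303615 and 16882311 in libraries 1, 2 and 3. All 8 alpha-beta T cell markers and both CD4 markers were detected. Of the CD8 markers, Cd8a stayed at or below 0.08 TPM and Cd8b1 had 5.65, 8.10 and 10.79 TPM. None of 8 B cell, 6 myeloid and 8 stromal or endothelial markers was detected, with summed levels of 2.32 to 3.36, 2.42 to 2.71 and 0 to 0.47 TPM. Of 6 dendritic cell markers Zbtb46 was detected at 12.85 to 15.58 TPM, and of 4 NK cell markers Klrb1c was detected at 7.74 to 9.27 and Eomes at 3.51 to 6.09. All 4 naive cell markers were detected beside all 6 memory markers. Of 6 immature thymocyte markers only Cd1d1 was detected, and Rag2 and Dntt had no counts. The part of these levels in the results below was not tested.

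For Rbpj, the central DNA-binding factor of the pathway, a nearly identical copy elsewhere in the genome bears on how its reads can be assigned. Rbpj lies on chromosome 5 (53466152 to 53657362, plus strand, GRCm38, the same assembly as mm10), and the processed pseudogene Rbpj-ps3 on chromosome 6 (46529354 to 46530794, minus strand). Over 1441 coding bases of transcript Rbpj-203 the copies differed at 4 positions, an identity of 99.7%, and the longest identical run was 638 bases, well beyond the 50-base reads that the effective lengths in the tables correspond to. A stretch of 120 bases is printed here because it holds 2 of those 4 differences, in capitals, in GENCODE M21 sequence read 5′ to 3′ along each transcript. The first comes from exon 9 of the 11 exons of Rbpj-203 at chr5:53652607-53652726 (plus strand) and the second from chr6:46529807-46529926 (minus strand).
Rbpj: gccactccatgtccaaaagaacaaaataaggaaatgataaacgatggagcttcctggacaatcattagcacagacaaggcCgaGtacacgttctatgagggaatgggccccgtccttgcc
Rbpj-ps3: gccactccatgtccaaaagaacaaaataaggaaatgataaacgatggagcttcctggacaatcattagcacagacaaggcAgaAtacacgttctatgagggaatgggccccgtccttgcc

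Detection required 1 TPM or more in each of the 3 libraries, which 8 of the 10 members reached. Over all annotated genes 21.1% were detected. Dtx1 had the highest mean level, followed by Adam10, Rbpj, Adam17, Notch1, Maml2, Notch2, Maml1, Hes1 and Notch3. Most neighbours in that order overlapped over the libraries. Only Adam10 and Rbpj, Maml1 and Hes1, and Hes1 and Notch3 had ranges that did not overlap, and these pairs kept their order in each of the 3 libraries. Adam10 led in library 1, where Notch1 took place 6 and Notch2 place 8. In libraries 2 and 3 Dtx1 led, and Notch1 took place 4 and place 3. Without library 1 the mean of Notch1 lay above that of Adam17 and the mean of Notch2 above that of Maml2, the reverse of the order over all libraries.

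**Figure D1:**
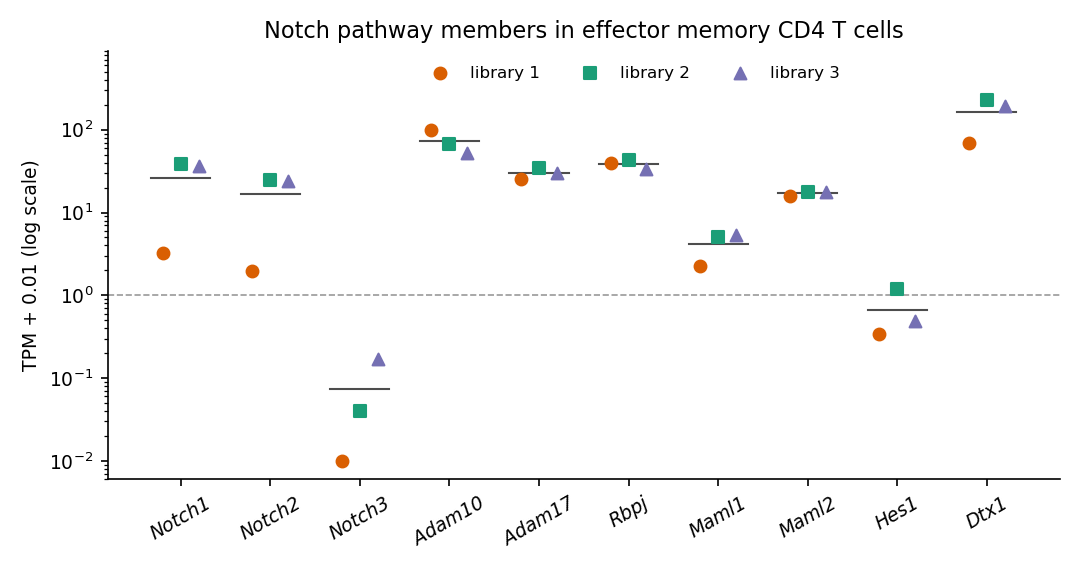
TPM of each member in libraries 1, 2 and 3 on a log axis, with 0.01 added so that a value of 0 can be drawn; points are libraries, horizontal bars are means over 3 libraries and the dashed line marks a TPM of 1. Notch1 and Notch2 sit at 3.20 and 1.96 in library 1 and above 23 in both other libraries, while Rbpj and Maml2 stay close together.

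Notch1 and Notch2 were the expressed receptors. Notch1, the receptor required for T cell commitment in the thymus, lies on chromosome 2 (26457903 to 26516663, minus strand) and stood at 3.20 TPM in library 1, 38.74 in library 2 and 36.38 in library 3, with a mean of 26.1 ± 19.9 (SD, n = 3). Library 1 was far below the others, which were close to each other and averaged 37.6. Notch1 overlaps Gm13568 on the opposite strand, which had 3.23, 0 and 0 TPM in libraries 1, 2 and 3. It also overlaps 0610009E02Rik there, with 0, 0.79 and 0.08 TPM. The strand setting was not given in the sources used here, so reads in these overlaps are uncertain. Notch2, a receptor also used by B cells and myeloid cells, lies on chromosome 3 (98013527 to 98150361, plus strand) and had TPM values of 1.96, 24.74 and 23.72, with a mean of 16.8 ± 12.9 (SD, n = 3). Again library 1 alone was low, and libraries 2 and 3 averaged 24.2. For the level of a gene in a bulk sample, fewer cells that carry a transcript and less of it in each cell cannot be told apart. That limit is not a reading of the gap between library 1 and the others, which by their labels share a single sample. What caused the gap was not tested. At the mean over libraries 2 and 3, Notch1 was 11.7-fold and Notch2 12.4-fold above library 1. The size of these folds is uncertain, and they take in all transcripts of each gene. The coding transcript Notch1-201 alone had 3.07, 27.5 and 25.16 TPM in libraries 1, 2 and 3, and Notch2-201 had 0.64, 14.47 and 13.65. Several deposited intervals also do not hold the TPM they were deposited with. For Notch1 in library 1 the interval was 4.95 to 11.4, above the deposited value of 3.20. The interval for Notch2 was 1.28 to 2.29 in library 1, which holds its value. In libraries 2 and 3 it was 19.3 to 22.9 and 18.9 to 22.3, below the deposited values. Adam10, Maml2 and Dtx1 had TPM values above their intervals in every library.

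Both receptors were low in library 1, but their ratio depended on the scale. The ratio of Notch1 to Notch2 TPM was 1.63, 1.57 and 1.53 in libraries 1, 2 and 3, a mean of 1.58 ± 0.0505 (SD, n = 3). By TPM of the whole gene it thus stayed within a narrow range. In library 1 the coding transcripts Notch1-201 and Notch2-201 stood further apart, at 3.07 and 0.64 TPM. Notch1 had 317, 2388 and 2577 expected counts and Notch2 98.4, 1510 and 1670, which gave ratios of 3.22, 1.58 and 1.54, and the M4 counts described below gave 3.33, 1.51 and 1.42. By counts library 1 therefore stood apart in the ratio as well, with Notch2 the lower receptor. The ratio of Adam10 to Notch1, by contrast, was 30.8, 1.74 and 1.45.

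Notch3, a receptor best known from vascular smooth muscle, was not detected. It had 0, 2 and 2 expected counts, or 0, 0.03 and 0.16 TPM. For the full-length transcript Notch3-201 the 0 counts of library 1 allow a level of up to 0.0350 TPM, taking 3 counts as the limit, which covers counting error only.

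Both sheddases were expressed. Adam10, the protease that makes the ligand-dependent cut in the receptor, lies on chromosome 9 (70678997 to 70780229, plus strand) and had TPM values of 98.54, 67.31 and 52.82, with a mean of 72.9 ± 23.4 (SD, n = 3). It was the only member with its highest value in library 1, and its range did not overlap that of Adam17. Adam17, a protease that also releases tumour necrosis factor and L-selectin, lies on chromosome 12 (21323509 to 21373632, minus strand) and had TPM values of 25.32, 34.06 and 29.83, with a mean of 29.7 ± 4.37 (SD, n = 3). Its libraries lay close together, with library 1 lowest. Adam10 exceeded Adam17 by 3.89-fold, 1.98-fold and 1.77-fold in libraries 1, 2 and 3. Adam17 overlaps Iah1 on the opposite strand, which had 13.1 to 15.4 TPM, and the strand setting was not given in the sources used here, so reads in the overlap are uncertain.

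The nuclear components differed in level. Rbpj had TPM values of 39.20, 43.27 and 33.52, with a mean of 38.7 ± 4.90 (SD, n = 3). Library 1 lay between the others. Maml2, a coactivator that bridges the receptor's intracellular domain to histone acetyltransferases, had TPM values of 15.78, 17.70 and 17.57, with a mean of 17.02 ± 1.07 (SD, n = 3), the smallest relative spread of the detected members. Maml1, its paralog, had TPM values of 2.23, 5.02 and 5.34, with a mean of 4.20 ± 1.71 (SD, n = 3). Library 1 was lowest for both coactivators. Maml2 was the higher of the pair in each library, by 7.08-fold, 3.53-fold and 3.29-fold. Maml1 shares its locus with the antisense gene Gm26542 (0.24, 1.13 and 0.89 TPM), and Maml2 holds the unclassified genes Phxr4 and Gm47087 on its own strand, so part of these reads is uncertain too.

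The target genes stood far apart in level. Dtx1, which encodes the ubiquitin ligase Deltex-1 and is induced by Notch signalling, lies on chromosome 5 (120680202 to 120711927, minus strand) and had TPM values of 69.07, 230.90 and 194.87, with a mean of 165 ± 84.96 (SD, n = 3). Library 1 was 3.08-fold below the mean of libraries 2 and 3, which was 213. The mean of Dtx1 was above that of 89.8% of the detected protein-coding genes, whose median was 28.9 TPM. Hes1, a repressor of the Hairy and Enhancer of split family and a common readout of Notch signalling, had 0.33, 1.17 and 0.48 TPM, or 5, 10 and 7 expected counts. Hes1 exceeded a TPM of 1 in library 2 only and was not called detected.

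Differences between the libraries were tested for each gene with a chi-square test of homogeneity on rounded expected counts, with Benjamini-Hochberg adjustment over all 13177 genes that had at least 30 counts in total. This test compares the libraries with counting error, and 75.8% of all tested genes were called at an adjusted p below 0.05. Of the 8 members tested 7 were called, a share of the same order as that background, and the exception was Maml2 (adjusted p = 0.0982). Calls with library 1 below both others and at least 1.5-fold below their geometric mean, in counts per library total, made up 28.1% of all tested genes and 4 of the 8 members: Notch1, Notch2, Maml1 and Dtx1. Calls with library 1 higher by the same rule made up 18.4% of all tested genes and 1 of the 8 members, Adam10. With size factors by the median of ratios, higher calls made up 51.6% of all calls with a direction, against 39.6% with library totals, and the members remained at 1 higher and 4 lower. Adam17 and Rbpj were called, with adjusted p of 0.000278 and 1.02e-13, but neither reached 1.5-fold in library 1.

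Counting error was much smaller than the real spread, with a median overdispersion of 19.9 over the tested genes. When each chi-square statistic was divided by that value, 21.6% of all tested genes and 4 of the 8 members were called. These were Dtx1 (adjusted p = 1.10e-32), Notch1 (adjusted p = 1.28e-20), Notch2 (adjusted p = 1.70e-15) and Adam10 (adjusted p = 7.25e-08). Maml1 did not pass (adjusted p = 0.381), nor did Rbpj (adjusted p = 0.570), Adam17 or Maml2. The divisor was the same for genes of low and high counts and came from these same libraries. The scaled p-values are therefore not set against each gene's own spread. Between libraries 2 and 3 alone, 16.7% of the tested genes and 3 of the 8 members were called by the unscaled test. Adam10 (adjusted p = 2.45e-09), Dtx1 (adjusted p = 1.42e-06) and Rbpj (adjusted p = 0.000663) were each higher in library 2. The receptors were not called between these libraries, with adjusted p of 0.669 for Notch1 and 0.974 for Notch2, which does not show that their levels were equal.

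The log2 difference of library 1 from the mean of libraries 2 and 3, on the log2(TPM + 1) scale, placed the receptors near the bottom of all genes. It was -3.20 for Notch1, -3.09 for Notch2, -1.60 for Dtx1 and -0.94 for Maml1. It was -0.32 for Adam17, -0.15 for Maml2, 0.04 for Rbpj and 0.72 for Adam10. Over all detected genes the median was -0.05 and the 5th and 95th percentiles were -1.55 and 1.03. Of 9895 detected protein-coding genes, 0.0606% had a lower value than Notch1, 0.0910% a lower value than Notch2 and 3.87% a lower value than Dtx1. The median of all genes shifted to 0.09 with TMM-scaled counts and to 0.13 with the median of ratios. On both scales Notch1, Notch2, Dtx1 and Maml1 stayed below the median of all genes and Adam10 above it. Notch1 stood at -2.90 and Notch2 at -3.80 with TMM-scaled counts. Rbpj stood at -0.15 and -0.12, below the medians of these scales and above that of TPM, and Maml2 at 0.02 and 0.05, below the median on every scale.

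**Figure D2:**
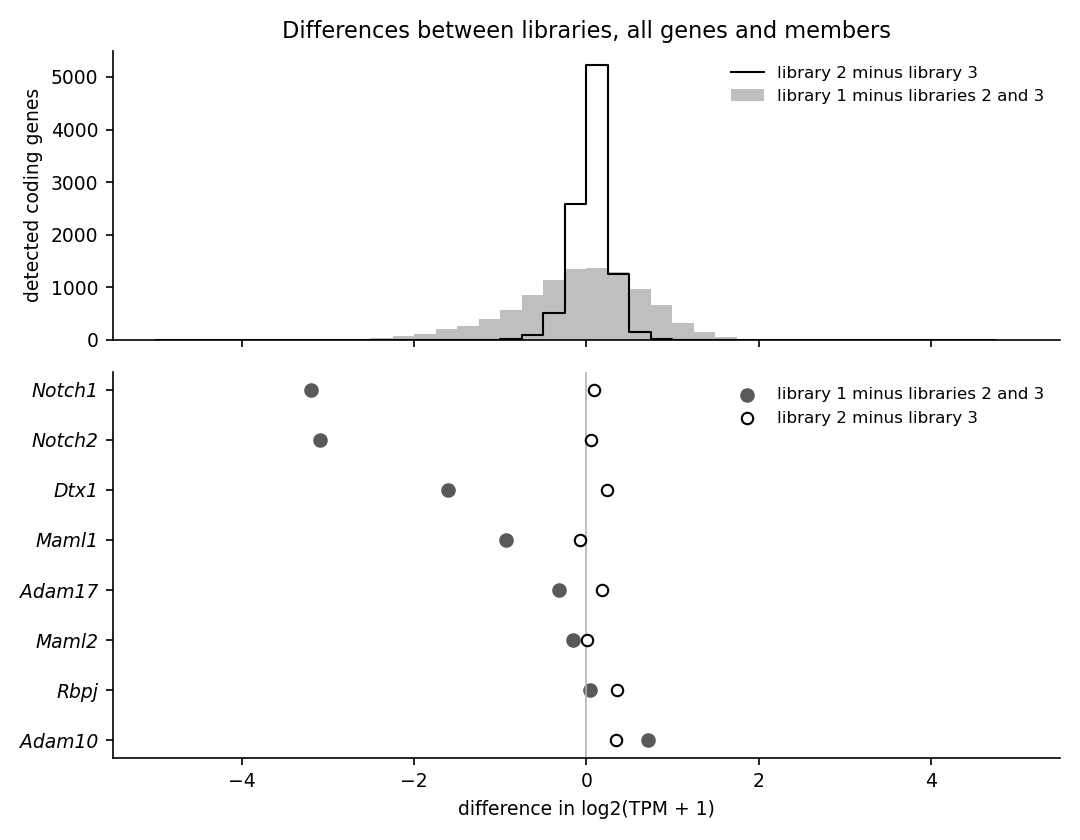
Top, number of detected protein-coding genes by difference in log2(TPM + 1), for library 1 minus the mean of libraries 2 and 3 (grey bars) and for library 2 minus library 3 (black line). Bottom, the same differences for the 8 detected members (filled and open points): Notch1 and Notch2 lie at -3.20 and -3.09, outside the grey bulk, while their open points lie at 0.09 and 0.06.

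Transcript length moved with this difference across all genes. Spearman's correlation of the library 1 difference with the length of the leading transcript was -0.33 over 9895 detected protein-coding genes, and with its GC content -0.13. A trend with length was not limited to library 1. The difference of library 2 minus library 3 had a correlation of 0.28 with length, in the opposite direction, and of 0.04 with GC content. All genes share the same 3 libraries, and the correlations are descriptions. In the 2474 genes with the shortest transcripts, up to 1341 bases, the median library 1 difference was 0.21. In the 2473 with the longest, from 3463 bases, it was -0.44. For library 2 minus library 3 the medians of these sets were -0.02 and 0.13. Notch1-201, at 9488 bases, was longer than 99.4% of those genes, and Notch2-201, at 10500 bases, longer than 99.7%. The 989 genes with the longest transcripts had a median library 1 difference of -0.67 and a lower quartile of -1.24, and both receptors lay below that quartile. The other detected members had leading transcripts of 4035 bases (Dtx1-201), 4443 (Adam17-201), 4593 (Adam10-201), 5440 (Rbpj-203), 5528 (Maml1-201) and 6404 (Maml2-202), with the differences given above. The part of length in the difference of the receptors was not tested.

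**Figure D3:**
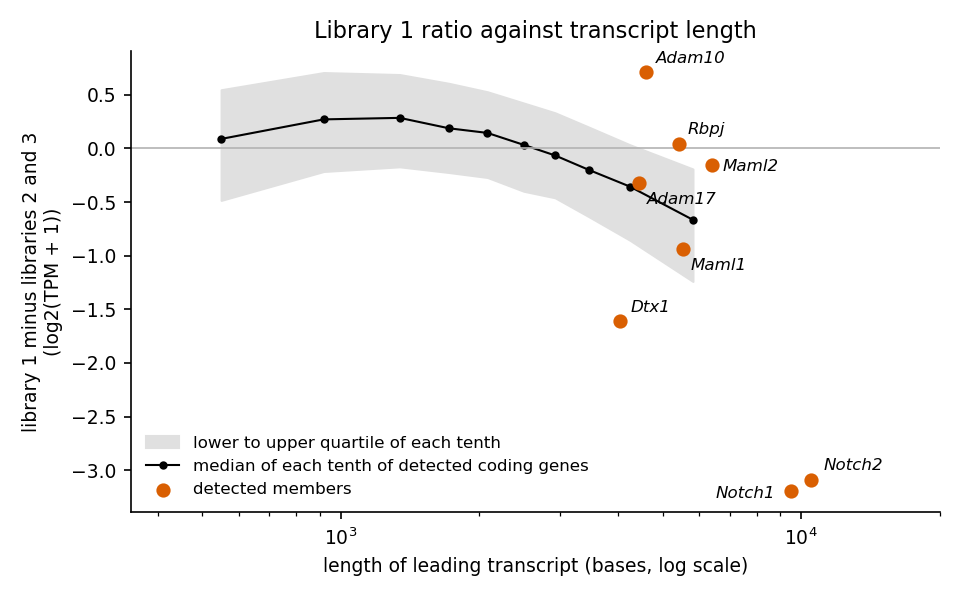
Difference of library 1 from libraries 2 and 3 in log2(TPM + 1) against the length of the leading transcript (log axis), with the median (black) and quartile range (grey) of each of 10 length bins of detected protein-coding genes and the 8 detected members in orange. Notch1 and Notch2 combine the greatest lengths among the members with the lowest differences. Adam10, Rbpj and Maml2 lie above the upper quartile of their length bins, and Dtx1, like both receptors, below the lower quartile.

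Genes with profiles like those of Notch1, Notch2 and Rbpj were named by Euclidean distance of log2(TPM + 1) over 3 libraries among protein-coding genes outside the pathway list, so that their pattern over the libraries follows from the choice. The nearest to Notch1 was Zmiz1, with 4.35, 40.46 and 35.69 TPM (distance 0.36), followed by Khsrp and Ndst1. The nearest to Notch2 was Tnrc18, with 1.98, 28.46 and 27.69 TPM (distance 0.29), followed by Epn1 and Scaf1. For Rbpj it was Ezh2, with 36.82, 43.07 and 34.06 TPM (distance 0.09), followed by Thumpd3 and Mtmr1.

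The transcript tables give each transcript's deposited share of its gene's TPM, an estimate. Notch1-201, the full-length coding transcript, led in every library with 95.73, 70.99 and 69.14% of Notch1 TPM. In libraries 2 and 3 the 406-base noncoding fragment Notch1-202 took 24.2 and 20.4% of TPM on only 29.7 and 27.5 expected counts. By share of expected counts Notch1-201 held 96.7% ± 1.35 (SD, n = 3). The lower TPM share of Notch1-201 in libraries 2 and 3 thus came mostly with these few counts of a short transcript.

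For Notch2 the coding and the intron-retaining transcript exchanged places. The coding transcript Notch2-201 held 32.81, 58.47 and 57.57% of TPM, and Notch2-202, a 1896-base transcript with a retained intron, held 67.19, 41.53 and 42.43%. Notch2-202 led in library 1 and Notch2-201 in the others. By counts Notch2-201 led in every library, with 73.4, 88.8 and 88.5%. Library 1 had 98.4 expected counts of Notch2 in all, of which 26.1 were given to Notch2-202.

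Dtx1 had the same direction on far more counts. Its coding transcript Dtx1-201 held 54.20, 68.46 and 73.25% of TPM, and the retained-intron transcript Dtx1-204 held 40.45, 24.39 and 20.82%. Library 1 had the lowest coding share and the highest retained share, with 874 of its 2523 expected counts given to Dtx1-204. The share of all retained-intron transcripts of Dtx1 by counts ranged from 18.6 to 36.4%.

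The other members were read mainly as coding transcripts. Adam10-201 held 99.7% ± 0.260 and Maml2-202 held 98.7% ± 0.670 of TPM (SD, n = 3). Adam17-201 led with 82.33, 80.12 and 70.39%. Maml1 was divided between a pair of coding transcripts, with Maml1-202 ahead in library 1 at 56.21% and Maml1-201 ahead in libraries 2 and 3 at 57.23 and 99.05%. Maml1 had only 123, 233 and 303 expected counts, and the share of Maml1-201 differed more between libraries 2 and 3 than any transcript share of the other detected members. Rbpj-203 led Rbpj with 55.21, 52.19 and 64.78%, and Rbpj-202 and Rbpj-201 changed places between libraries, at 16.96, 22.35 and 3.62% and at 0, 8.58 and 21.55%.

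**Figure D4:**
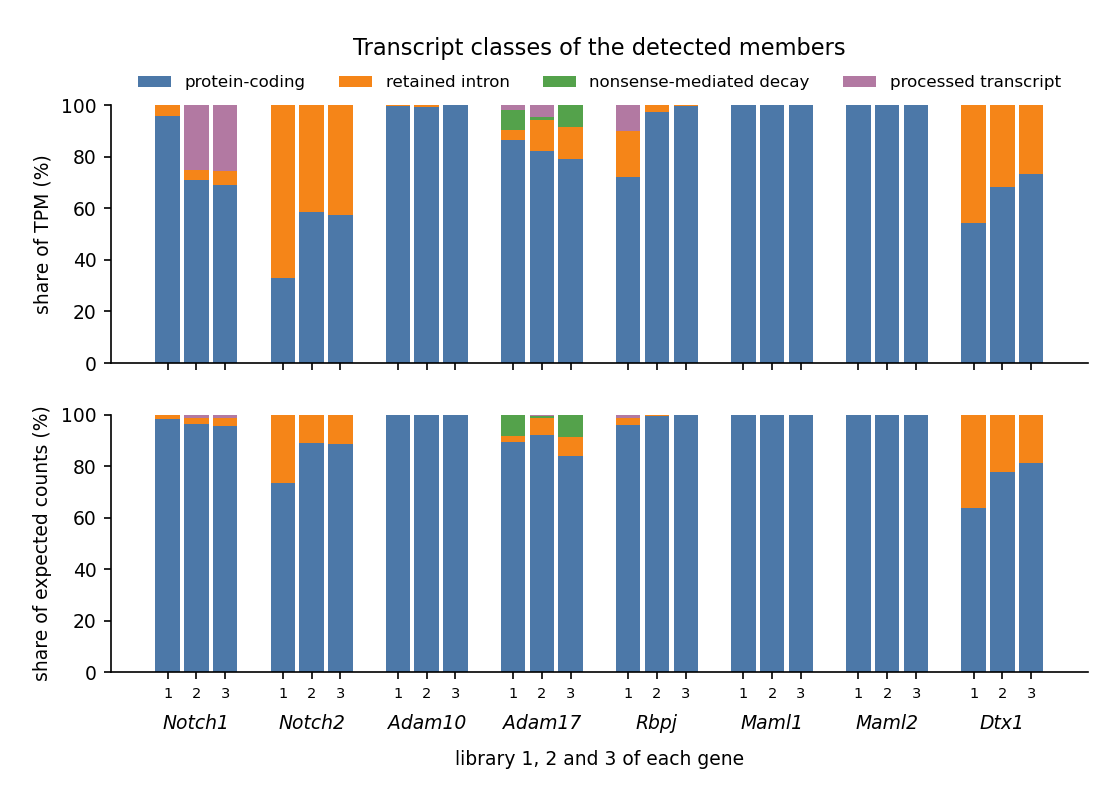
Stacked bars of the share of each detected member's TPM (top, percent) and of its expected counts (bottom, percent) given to protein-coding, retained-intron, nonsense-mediated decay and processed transcripts in libraries 1, 2 and 3. Retained-intron transcripts of Notch2 and Dtx1 take 67.19 and 45.8% of TPM in library 1 and less in libraries 2 and 3, and the processed fragments of Notch1 visible by TPM nearly vanish by counts.

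Counts were divided between Rbpj and the copy whose sequence is printed above. Rbpj had 1694, 1926 and 1861 expected counts, and Rbpj-ps3 had 120, 10.3 and 79.1, or 8.03, 0.83 and 5.49 TPM. The posterior SD deposited with the counts was the same for both genes, at 40, 13.5 and 24.5 counts. For Rbpj-ps3 this was a large part of its estimate, and for Rbpj it was 2.36, 0.703 and 1.32%. Together they had 1814, 1936 and 1940 counts, of which 6.62, 0.532 and 4.08% went to the pseudogene. Whether those counts came from Rbpj or from the pseudogene was not tested. Rbpj-ps1 and Rbpjl, the RBPJ-like gene, had no counts in any library. Of 5391 windows of 50 bases in Rbpj-203, 1259 (23.4%) also occurred in transcripts of other genes, 1239 of them in Rbpj-ps3. Notch2-201 shared 3.86% of its windows, with Gm42820, and no other leading coding transcript of a member shared more than 0.82%.

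Rbpj also differed between the deposited quantifications. In the whole-number counts on GENCODE M4 annotation it had 60, 57 and 69 counts, which was 3.54, 2.96 and 3.71% of its expected counts. Over 9010 detected protein-coding genes with at least 50 expected counts in every library the median was 50.8, 52.3 and 50.6%, and only 2.65% of them had a lower mean than Rbpj. Notch1 kept 72.5, 81.9 and 78.6% and Notch2 70.1, 86.0 and 85.6%. Maml1 kept 20.3, 52.9 and 48.5% and Maml2 21.2, 46.4 and 42.2%, so both coactivators were lower in library 1 by this measure. The log2 difference of library 1 in the M4 counts was -3.07 for Notch1, -4.19 for Notch2, -1.11 for Dtx1, 0.69 for Adam10 and -0.04 for Rbpj, but -1.01 for Maml2 and -2.20 for Maml1. The making of the M4 counts was not given in the sources used here, and the cause of these differences was not tested.

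Of 72 other genes of the pathway, listed by role, 50 were detected, and 52 over libraries 2 and 3 alone, where Jag2 and Numbl were added. The list had 48 of 56 tested genes called between the 3 libraries, 22 with library 1 lower and 9 with library 1 higher, beside backgrounds of 75.8, 28.1 and 18.4%. With the scaled statistic 21 of the 56 were called, a larger share than the 21.6% of all tested genes. Between libraries 2 and 3, 11 of 54 were called, beside 16.7%. The median library 1 difference of the detected genes was -0.23 for this list and -0.63 for the 8 detected members, against -0.05 over all detected genes.

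No Notch ligand was detected over the 3 libraries. Jag2 had 0.60, 1.84 and 1.26 TPM, Jag1 0.59, 0.43 and 0.33, and Dll1 0, 0.91 and 0.59. Dll4, the ligand of the thymic epithelium, had 4, 1 and 0 expected counts, and Dll3 had no counts in any library, which allows up to 3 counts in each. Ligand ubiquitin ligases prepare ligands in the signal-sending cell, and whether Neurl3, listed with them here, does so was not tested. In this class Neurl3 had 158.50, 511.98 and 482.26 TPM, Mib2 18.58, 45.47 and 38.97, and Mib1 5.83, 23.60 and 17.30. These 3 were called lower in library 1 by the scaled test as well, and Neurl1a and Neurl1b were not detected. The further receptor Notch4 stood at 0.44, 0.23 and 0.41 TPM.

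Enzymes that modify the receptor were expressed. Lunatic fringe, encoded by Lfng, adds a sugar that changes which ligand the receptor prefers, and it had 22.35, 72.29 and 73.13 TPM. Library 1 was 3.25-fold below the mean of the others (scaled adjusted p = 5.75e-07). Its paralogs Mfng and Rfng had means of 106 ± 10.3 and 22.8 ± 5.57 TPM (SD, n = 3). Furin, the protease that cuts the receptor precursor on its way to the surface, had 13.53, 166.21 and 151.97 TPM. As with the receptors, library 1 alone was low, by 11.8-fold (scaled adjusted p = 2.10e-57). Pofut1 and Poglut1, which attach fucose and glucose to the receptor, had means of 7.21 ± 1.40 and 20.4 ± 1.16 TPM (SD, n = 3).

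Genes of gamma-secretase, the protease complex that releases the intracellular domain, were expressed. Psen2, which encodes a catalytic subunit, had a mean of 76.6 ± 28.7 TPM (SD, n = 3) and of 60.1 without library 1. Nicastrin, encoded by Ncstn, had a mean of 107 ± 35.5, Psenen 125 ± 32.4 and Aph1a 26.6 ± 4.91 (SD, n = 3), against 87.2, 107 and 29.1 without library 1. Aph1b and Aph1c were not detected. Of the 6 tested genes of this class 3 were called higher in library 1, namely Psen2, Ncstn and Psenen, beside 18.4% of all tested genes. Aph1a went the other way, with 21.62, 26.84 and 31.43 TPM, and was called (adjusted p = 3.90e-06) without reaching 1.5-fold. With the scaled statistic Psen2 (adjusted p = 0.000328) and Ncstn (adjusted p = 6.35e-08) remained and Psenen did not (adjusted p = 0.150).

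Coactivators and corepressors of RBPJ were mostly detected. Snw1, which binds the RBPJ complex, was the highest coactivator at 263.82, 137.78 and 126.57 TPM, with library 1 higher. The acetyltransferase genes Kat2a and Ep300 had means of 30.1 ± 8.18 and 28.3 ± 13.7 (SD, n = 3), or 34.6 and 36.2 without library 1, and Maml3 was not detected. Of 16 corepressor genes 14 were detected. Tle5, listed in the annotation under an older symbol, led with 703.5 ± 17.1 TPM (SD, n = 3), and its libraries lay close together. Ncor1 had 778.72, 301.18 and 303.24 TPM, high in library 1 alone, and Ctbp1 a mean of 236 ± 48.8 (SD, n = 3). Ctbp2 and Tle2 were not detected.

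Genes for turnover and restraint of the receptor were expressed as well. Dtx3, Itch and Numb led this class with means of 74.5 ± 22.2, 63.5 ± 25.5 and 47.7 ± 12.8 TPM (SD, n = 3), or 87.3, 78.2 and 40.7 without library 1. Itch, a ubiquitin ligase, and Dtx3 were called lower in library 1, and Numb, an endocytic adaptor that limits Notch signalling, was called higher. Numbl had 0.27, 2.09 and 1.79 TPM and was not called detected.

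Among further Hes and Hey genes 2 of 8 were detected. Hes6, an atypical member that can oppose Hes1, had 37.19, 14.96 and 11.94 TPM, with library 1 highest (scaled adjusted p = 0.00824). Hey1 had 7.25, 5.88 and 6.11. Hes2, Hes3, Hes5, Hes7, Hey2 and Heyl stayed at or below 0.33 TPM, like Hes1 far below the level of Dtx1. Of the other targets, Tcf7, Myc and Gata3 had means of 1007 ± 312, 115 ± 7.86 and 51.7 ± 4.08 TPM (SD, n = 3), or 1187, 113 and 52.1 without library 1. Tcf7 was called lower in library 1 and Gata3 was not called. Ccnd1 and Ptcra, a target in immature thymocytes, were not detected.

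**Figure D5:**
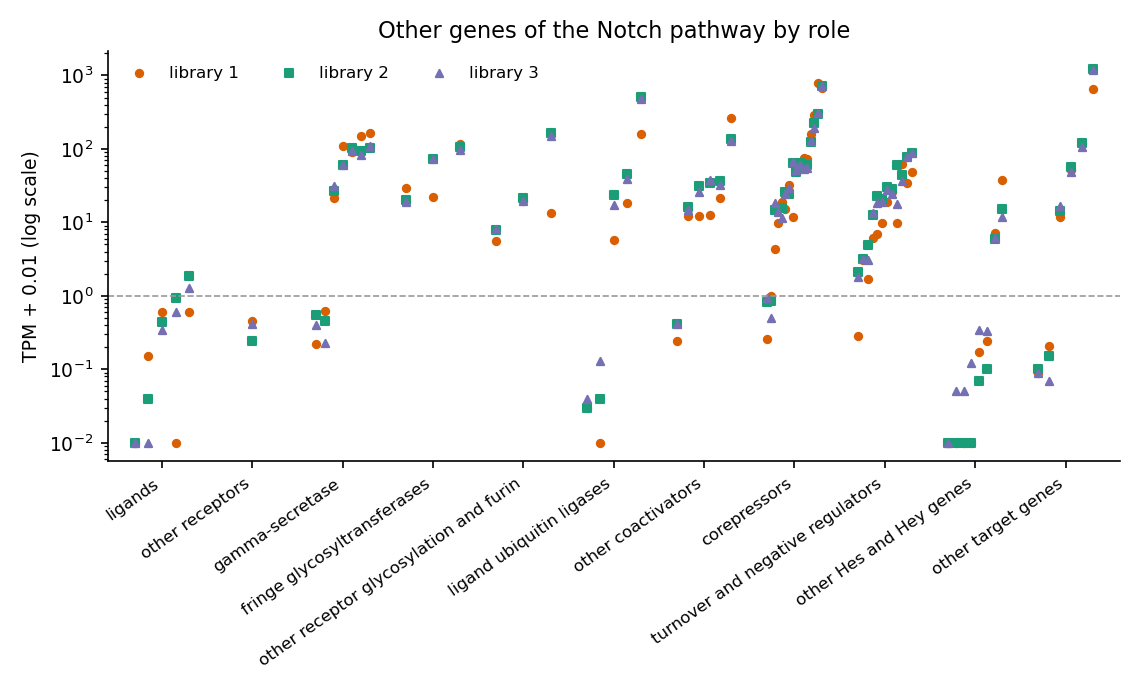
TPM plus 0.01 (log axis) of 72 other pathway genes in libraries 1, 2 and 3, grouped by role, with a dashed line at a TPM of 1. Ligands and most Hes and Hey genes lie below or about the line, and the undetected gamma-secretase genes Aph1b and Aph1c lie below 1 TPM.

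The core letters bound by RBPJ were looked for in RefSeq promoter windows (GRCm38.p6) of 300 bases, 250 before and 50 after the start. The motif was TTCCCAC or its reverse complement GTGGGAA, on both strands. It occurred in 0 of the 9 members with a window, which are all but Hes1, and in 7 of 55 other pathway genes with a window (12.7%). Over all genes with a window the share was 7.25%, and over detected protein-coding genes 6.91%. A match is a description and not a binding site, and no match says only that these letters are absent from this window. The 7 genes were Psen2, Aph1a, Spen, Lfng, Hes5, Hes7 and Hey2, of which the first 4 were detected. The first 200 bases of the windows of Lfng (chr5:140607091-140607290, plus strand) and Hes5 (chr4:154960673-154960872, plus strand) are printed because the motif, in capitals, stood before a gene expressed at 55.9 TPM and a gene with 3, 1 and 4 counts.
Lfng: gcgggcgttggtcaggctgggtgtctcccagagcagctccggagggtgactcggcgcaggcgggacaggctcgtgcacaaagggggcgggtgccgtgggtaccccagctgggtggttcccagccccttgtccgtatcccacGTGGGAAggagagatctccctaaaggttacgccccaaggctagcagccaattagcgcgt
Hes5: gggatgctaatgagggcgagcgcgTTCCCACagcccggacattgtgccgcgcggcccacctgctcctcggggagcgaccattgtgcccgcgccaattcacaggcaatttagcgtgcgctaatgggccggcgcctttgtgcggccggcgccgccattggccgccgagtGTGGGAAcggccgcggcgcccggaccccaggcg
The motif began 109 bases before the start of Lfng, and 226 and 83 bases before the start of Hes5, in opposite orientations.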

How the data were processed

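The authors deposited, for each of 3 libraries, gene and transcript tables annotated with GENCODE M21 on the mm10 assembly, per the labels and the file headers. Expected counts, which the authors deposited as estimates, need not be whole and were rounded for tests. Deposited TPM values were used as given, and the deposited percent values are transcript shares. The authors also deposited whole-number counts on GENCODE M4, without a header. Aligner, quantifier and strand setting were not given in the sources used here. Rows without an Ensembl gene ID were left out (0.304, 0.298 and 0.226% of counts in libraries 1, 2 and 3).

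Genes with at least 30 counts were tested with Pearson's chi-square test over libraries, Benjamini-Hochberg adjusted over all of them. With 1 group no edgeR contrast exists. TMM factors came from edgeR 4.0.16 and size factors from DESeq2 1.42.0 in R 4.3.3. Other steps used pandas 2.3.3, scipy 1.17.1 and numpy 2.4.6 in Python 3.11.15. The test was checked on simulated counts with known changes. Those counts held counting error only, without the overdispersion of the data, so the check does not extend to it.

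Members, gene lists and tests were chosen with earlier results of these data known. All members are named, as are all ligands, receptors, gamma-secretase and fringe genes, and in other classes the 3 highest detected and the undetected genes, except that 1 gene is not reported here. For Notch1, Notch2 and Rbpj the 3 nearest protein-coding profiles are named. Alternatives covered scaling, count and TPM minimums, overdispersion, pseudocount, unit, annotation and leaving out each library.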

Additional observations from a re-analysis of the deposited data

How the results depend on the processing

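The count of members that varied between the libraries was 7 of 8. It fell to 4 with the statistic divided by the median overdispersion, where Adam17, Rbpj and Maml1 were lost, and ranged from 3 to 7 when each library was left out in turn, with 3 without library 1. It was 6 with TMM library sizes, where Adam17 was lost (adjusted p = 0.0739), and 6 with the M4 counts. Those 6 need not be the same members. Maml2, the exception by expected counts, had 228, 459 and 481 M4 counts in libraries 1, 2 and 3. Adam17 had 632, 613 and 623 there, and Rbpj 60, 57 and 69. The count between libraries 2 and 3 stayed at 3 under 3 alternatives chosen after seeing the data. The count of detected members was 8, and 5 at a TPM of at least 5. The library 1 difference of Rbpj reversed from 0.04 to -0.15 with TMM-scaled counts and to -0.12 with the median of ratios. That of Maml2, which was not called by expected counts, changed sign from -0.15 to 0.02 and 0.05. It was -1.01 in the M4 counts. Of 30 alternatives for the members' library 1 differences 13 stayed within the spread between replicates. Notch1, at -3.20, ranged from -3.51 to -2.90, and Notch2, at -3.09, from -3.97 to -3.56. By share of expected counts in place of TPM, Notch2-202 moved from 50.4 to 16.4% of Notch2 and Notch1-201 from 78.6 to 96.7% of Notch1. No paired analysis was possible because the libraries form 1 group. With technical libraries of 1 mouse, no spread between animals was measured, and levels of Hes1 and Notch3, at 10 counts or fewer per library, were not precise at this depth.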

Other observations

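A few pathway genes outside the naming rule, chosen after their values were seen, add to the picture. Nrarp, a small ankyrin protein gene induced by Notch that limits its signalling, had 3.09, 3.13 and 3.16 TPM and was not called between the libraries (chi-square test, adjusted p = 0.913). Relative to the mean, its 3 TPM values lay closer together than those of any member. It had only 84.2, 70.3 and 83 expected counts, so counting error does not allow so small a spread to be resolved. Other Deltex genes had lower means than Dtx1, at 16.4 ± 5.91 TPM for Dtx2, 16.1 ± 8.17 for Dtx3l and 25.6 ± 6.02 for Dtx4 (SD, n = 3). Dtx3 came closest, at 48.81 TPM in library 1 against 69.07 for Dtx1.

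Fbxw7, which encodes a ubiquitin ligase subunit that marks the intracellular domain of Notch for destruction, had 9.92, 60.20 and 17.65 TPM but 471, 773 and 806 expected counts. Libraries 2 and 3 thus differed in TPM at nearly equal counts, which were not called different between them (chi-square test, adjusted p = 0.502).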
